A study of Rattus norvegicus with 20 samples.

Results

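Postnatal maturation of the renal vasculature after maternal separation (MatSep) was followed by setting MatSep adults (P180, 5 arrays) against MatSep neonates (P10, 5 arrays), 10 of the 20 arrays of the series. The other 10 arrays, control P180 and control P10 with 5 each, were from pups left undisturbed with their dam. All rats were male Wistar Kyoto rats, taken at postnatal day 180 or 10, and no gene was altered and no drug given. MatSep pups spent part of each day away from their dam, and since the separations were still going on at P10, the MatSep neonates were sampled during the exposure and the MatSep adults long after it. To collect the vessels, kidneys were grated gently against a sieve whose pores were finer for neonates than for adults, so that age and preparation cannot be told apart. The labels do not name the litter of a rat.

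The rat kidney goes on forming nephrons, tubules and vessels after birth, and maturation then turns a growing organ into a transporting one. Dividing cells use one set of genes to copy DNA and another to part the chromosomes. The vessel wall lays down most of its collagen and elastin early and keeps those proteins for a long time, while tubule transporters and metabolic enzymes and the resident immune cells of the kidney come up with age.

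The arrays gave 1 intensity for each of 36685 transcripts, and the 18511 with 1 gene symbol were tested. Values are log2 intensities, and a difference of 1 is a doubling. Since the files hold no background or detection call, levels near 5 cannot be told from background, and the size of a difference that involves such a level is not exact. The median level of an array was between 6.97 and 7.03. Differences are P180 minus P10 with the standard error of a limma fit over all 20 arrays, and a transcript was called at a Benjamini-Hochberg adjusted p under 0.05. In bulk tissue, fewer cells of a type and less RNA per cell cannot be told apart.

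Levels of the markers bear on what the preparation held. Endothelial markers (18 of the list) averaged 9.11 to 9.78 in MatSep P180 arrays and 9.19 to 9.82 in MatSep P10 arrays, and smooth muscle markers (12) averaged 9.91 to 10.88 in MatSep P180 arrays and 9.01 to 10.10 in MatSep P10 arrays. Proximal tubule transport genes (25) averaged 10.54 to 11.06 in MatSep P180 arrays and 9.50 to 10.16 in MatSep P10 arrays, so the vessel preparation carried tubule at both ages. Some libraries stood apart within a group. In MatSep P180, sample 6 had the highest smooth muscle level, 10.88, where the other 4 had 9.91 to 10.45. In MatSep P10, samples 16 and 17 had 9.01 and 9.29, where samples 22 to 24 had 10.02 to 10.10. These 2 runs of sample numbers at P10 differed in 356 transcripts (1.92% of those tested), against 20 (0.108%) between samples 10 and 11 and samples 4 to 6 at P180. The labels do not say what the runs were.

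MatSep adults and MatSep neonates differed in many transcripts. At P180, 5074 transcripts (27.4%) were higher and 4113 (22.2%) were lower than at P10, with a median difference over all transcripts of 0.07. Of these, 623 were over 2-fold higher and 728 over 2-fold lower. In the 10 MatSep arrays, 76.1% of the variance lay on a first principal component along which adults and neonates separated, and 8.72% on a second, where samples 16 and 17 lay opposite samples 22 to 24. Without sample 6, 4931 transcripts were higher and 4045 lower. With samples 16 and 17 as the only neonates, 3635 were higher and 3296 lower, and with samples 22 to 24 as the only neonates, 4164 were higher and 3706 lower.

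**Figure D1:**
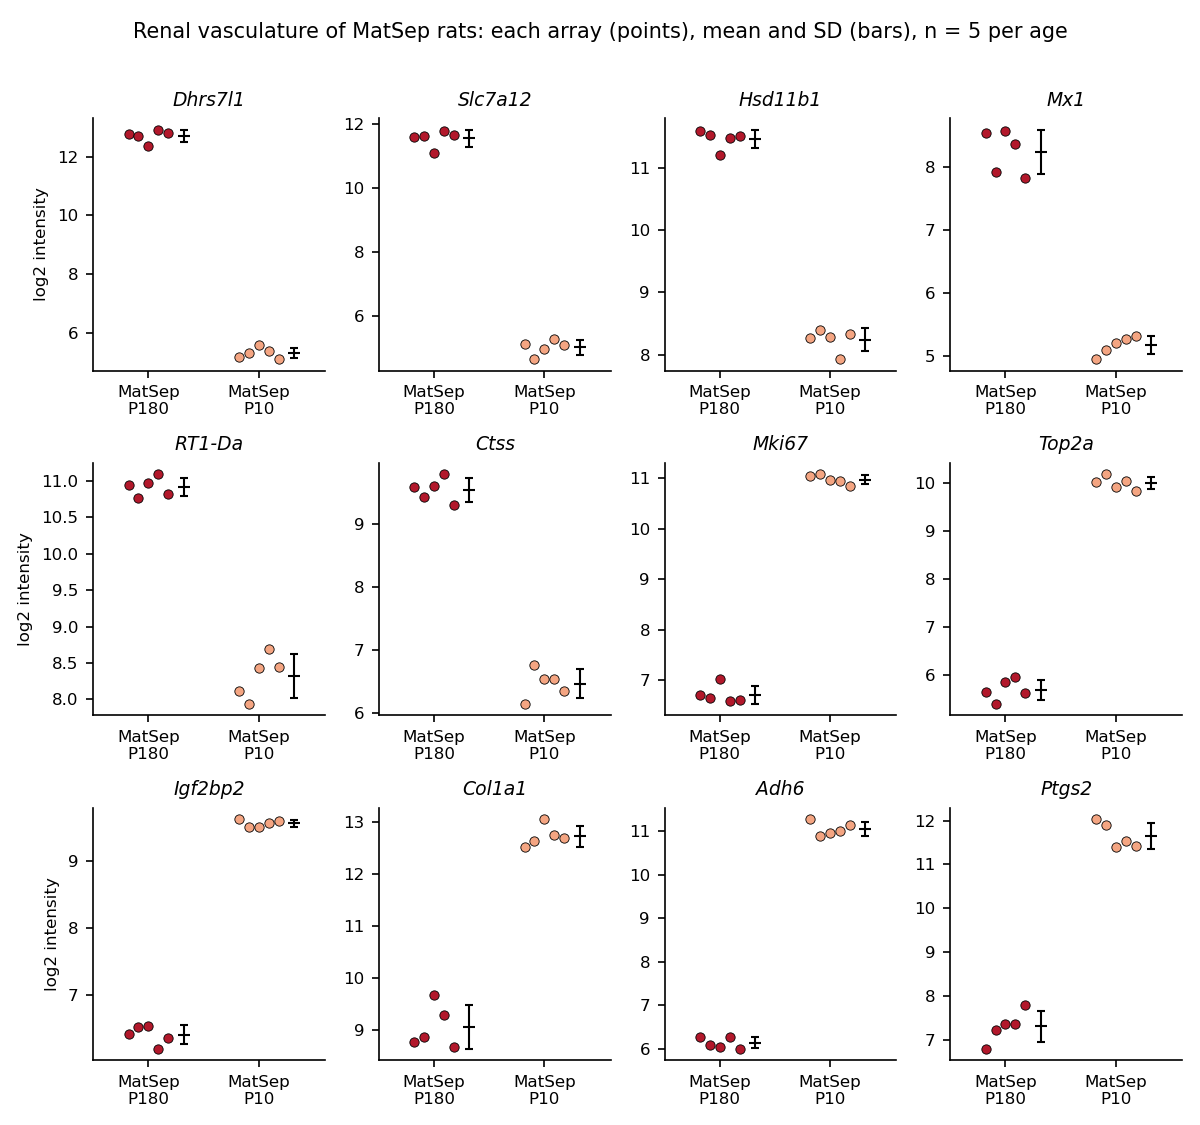
Log2 intensity of 12 genes in each MatSep array, P180 left and P10 right, with mean and SD beside the points (n = 5 per age). In each panel the P180 arrays lie clear of the P10 arrays, from Dhrs7l1 (7.41 higher at P180) to Adh6 (4.93 lower). The same held for 3173 higher and 3101 lower transcripts of 18511. The largest rises and falls were picked among such transcripts, so their separation follows from the rule.

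Genes of cell division fell the most uniformly. All 23 mitosis genes matched on the array were lower in MatSep adults (background 22.2%), with a median difference of -2.69 and a range of -4.32 to -0.48. The DNA topoisomerase Top2a had 5.63, 5.39, 5.84, 5.94 and 5.61 in P180 arrays, against 10.02, 10.18, 9.91, 10.04 and 9.84 in P10 arrays. The proliferation marker Mki67 had 6.69, 6.64, 7.01, 6.58 and 6.59 in P180 arrays, against 11.04, 11.08, 10.98, 10.95 and 10.85 in P10 arrays. Both genes were low in every adult array and high in every neonatal one. The log2 difference was -4.32 ± 0.12 for Top2a (20.0-fold lower at P180, adjusted p = 1.53e-16) and -4.28 ± 0.08 for Mki67 (19.4-fold lower, adjusted p = 5.37e-19). Knl1, a scaffold of the kinetochore, had 5.61, 5.58, 5.65, 5.62 and 5.57 in P180 arrays, against 8.82, 8.93, 8.79, 8.84 and 8.75 in P10 arrays. Its spread within an age was small next to the difference of -3.22 ± 0.05 (adjusted p = 1.5e-20). Ska3, which ties kinetochores to spindle fibres, fell by 3.28 on the log2 scale. The replication-dependent histone H2ac4 fell by 4.51 on the log2 scale, the third largest fall of all.

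DNA replication genes moved the same way by less. Of 21 matched, 19 were lower at P180 (background 22.2%), none was higher and the median was -1.28. Rrm2, a subunit of ribonucleotide reductase, fell by 2.78 ± 0.11, the helicase subunits Mcm6 and Mcm4 by 2.57 ± 0.13 and 2.05 ± 0.07, and the primase subunit Prim1 by 1.54 ± 0.08 on the log2 scale. The counts of both lists were 23 and 19 with either run of neonates and with either run of adults.

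The promoters of these 2 lists carry different letters, and they are shown because the lists fell together. RefSeq promoters (build GRCr8, 250 bases before to 50 after the start) were found for 21 of the mitosis genes and 17 of the replication genes. TTTGAA, the core of the cell cycle genes homology region (CHR), was present on either strand in 15 of 21 mitosis promoters (71.4%) and 1 of 17 replication promoters (5.88%), against 18.3% of all 33469 promoters. CCAAT was present in 15 of 21 (71.4%) and 12 of 17 (70.6%), against 37.5% of all, but also in 9 of 13 antigen presentation promoters (69.2%) and 9 of 15 clock promoters (60%), lists in which most genes were higher. The E2F-like letters TTTNNCGC were in 3 of 21 mitosis promoters and 10 of 17 replication promoters, against 4.92% of all. The stretches below come from Top2a (chr10:84473074-84473193, minus strand), Cdk1 (chr20:19265193-19265312, plus strand), Prc1 (chr1:143659401-143659500, plus strand) and Mcm6 (chr13:42404413-42404512, minus strand), with CHR and CCAAT letters on either strand in capitals in the first 3 and E2F-like letters in capitals in Mcm6, where the matches of both strands overlap.
Top2a: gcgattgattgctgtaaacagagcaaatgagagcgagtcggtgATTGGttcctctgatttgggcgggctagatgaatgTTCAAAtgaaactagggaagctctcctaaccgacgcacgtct
Cdk1: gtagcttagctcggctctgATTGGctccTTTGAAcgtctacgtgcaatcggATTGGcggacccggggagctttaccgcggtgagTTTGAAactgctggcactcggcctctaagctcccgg
Prc1: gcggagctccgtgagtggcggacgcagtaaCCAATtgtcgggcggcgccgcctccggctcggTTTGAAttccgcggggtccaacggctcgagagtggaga
Mcm6: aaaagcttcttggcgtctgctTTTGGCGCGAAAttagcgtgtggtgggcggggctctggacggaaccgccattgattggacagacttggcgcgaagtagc
A match of letters is a description and does not show that a factor binds there. Cdk1, the kinase that drives entry into mitosis, and Prc1, which bundles the central spindle, were chosen for these letters after their values were seen. Cdk1 ranged over 4.87 to 5.32 in P180 arrays and 7.58 to 7.97 in P10 arrays, and fell by 2.69 ± 0.14. Prc1 ranged over 5.34 to 5.61 in P180 arrays and 8.53 to 8.88 in P10 arrays, and fell by 3.27 ± 0.12 on the log2 scale. Neither gene had overlapping ages, as was so for 3101 of all 18511 transcripts on the falling side.

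Fetal growth genes were also lower in MatSep adults. Of 10 matched imprinted and fetal growth genes, 9 were lower (background 22.2%) and 1 higher (background 27.4%), with a median of -0.89. The count lower was 7 with samples 16 and 17 as the only neonates and 6 with samples 22 to 24. It was 8 with adults 4 to 6 only and 5 with adults 10 and 11 only. The median stayed between -0.98 and -0.79 in these 4 settings. Igf2bp2, which binds the Igf2 messenger RNA, had 6.42, 6.52, 6.54, 6.20 and 6.35 in P180 arrays, against 9.62, 9.51, 9.51, 9.57 and 9.59 in P10 arrays. The growth factor Igf2 itself had 6.56, 6.56, 7.08, 6.16 and 6.29 in P180 arrays, against 8.85, 9.14, 9.52, 9.33 and 9.51 in P10 arrays. Both pairs of groups were apart, by -3.16 ± 0.08 (adjusted p = 3.49e-17) and -2.74 ± 0.24 (adjusted p = 1.11e-08). The imprinted genes Plagl1 and Grb10 fell by 1.84 and 0.92 on the log2 scale. Lin28b, an RNA-binding protein of early development, went the other way by 0.23 ± 0.08 at levels near 5, and its call was lost without 1 of 3 arrays (MatSep P180 replicate 1, MatSep P180 replicate 5 or MatSep P10 replicate 2).

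Genes of forming nephrons were mixed. Of 19 matched, 10 were lower (background 22.2%), 1 was higher (background 27.4%) and 8 were not called, with a median of -0.31. The count higher was 3 without MatSep P180 replicate 2 and 2 without any 1 of 7 other arrays (MatSep P10 replicates 4 and 5, control P180 replicates 1 to 4, control P10 replicate 1). Osr1, a transcription factor of early kidney and mesenchyme, had 6.22, 6.05, 7.34, 6.73 and 6.47 in P180 arrays, against 8.11, 8.52, 8.83, 8.80 and 8.99 in P10 arrays. The highest adult array for Osr1, 7.34, was sample 6, and it still lay below every neonate (difference -2.09 ± 0.34, adjusted p = 4.64e-05). Ncam1 and Meox2 fell by 1.59 and 1.52 on the log2 scale. Cited1, which marks nephron progenitors, fell by 0.64 ± 0.12 on the log2 scale, and Gdnf, the growth factor that calls out the ureteric bud, rose by 0.52 ± 0.12.

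Matrix genes formed the second group that fell together. Of 29 matched genes for collagens, elastic fibres and the proteins that link them, 28 were lower in MatSep adults (background 22.2%) and none was higher. The median was -2.09 and the lowest value -4.27. The fibrillar collagen chain Col1a1 had 8.78, 8.87, 9.67, 9.30 and 8.68 in P180 arrays, against 12.52, 12.64, 13.06, 12.75 and 12.70 in P10 arrays. Sample 6 was the highest adult, and every neonate was far above it. Col1a1 fell by 3.67 ± 0.21 (12.8-fold lower at P180, adjusted p = 1.67e-11), Col1a2 by 3.11 ± 0.19, Col3a1 by 2.77 ± 0.17 and the crosslinking enzyme Loxl2 by 2.38 ± 0.15 on the log2 scale. Periostin (Postn), a matrix protein of growing connective tissue, ranged over 6.62 to 8.15 in P180 arrays and 10.82 to 11.73 in P10 arrays, and fell by 4.27 ± 0.32. The secreted proteins Cthrc1 and Fndc1 and the Wnt antagonist Sfrp1 were also among the 12 largest falls, at -3.68, -3.62 and -3.59. Sprr1a, which is in none of the gene lists, was another of the 12, at -4.45 (-4.84 to -4.04 without 1 array at a time).

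Fibroblast markers moved with the matrix genes. The mean level of the list was 8.51 to 8.86 in P180 arrays and 9.67 to 10.19 in P10 arrays. Of 10 markers, 8 were lower (background 22.2%) and the median was -1.01. Only 1 was higher (background 27.4%), and none was without MatSep P180 replicate 3 or MatSep P10 replicates 1, 4 or 5. Their part in the fall of the matrix genes was not tested. Pdgfra, a receptor of mesenchymal cells, fell by 2.39 ± 0.13, and Gli1, a target of hedgehog signalling, by 1.78 ± 0.16 on the log2 scale. Mfap5, a microfibril protein, had 5.98, 6.15, 5.83, 5.62 and 5.86 in P180 arrays, against 8.43, 9.95, 9.31, 8.87 and 9.07 in P10 arrays. Adults were uniform at about the level of dim transcripts, while neonates spread over more than a unit (difference -3.24 ± 0.37, 9.43-fold lower at P180, adjusted p = 4.39e-07).

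**Figure D2:**
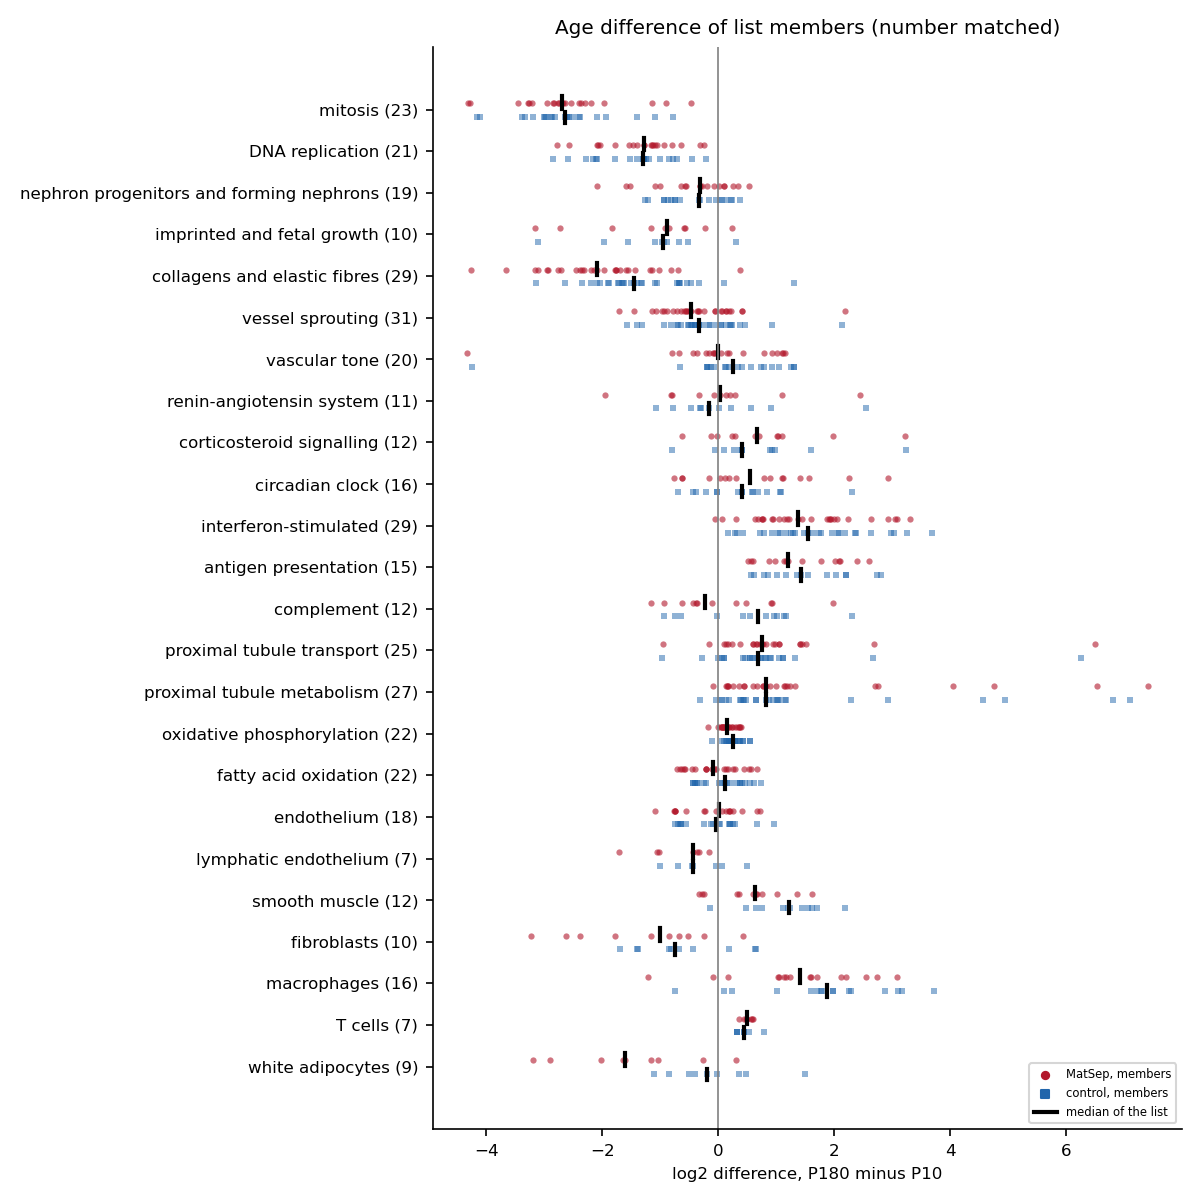
Log2 difference (P180 minus P10) of each member of 24 gene lists, MatSep rats above and control rats below, with the median of the list as a bar. The medians of mitosis and matrix genes lie left of 0 and those of interferon-stimulated, antigen presentation and macrophage genes right of it in both kinds of rat, while the MatSep bar of white adipocytes (-1.61) lies well left of the control bar (-0.19).

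Neither the genes of vessel sprouting nor the endothelial markers moved as one. Of 31 genes of vessel sprouting, 19 were lower (background 22.2%) and the median was -0.47. The count higher was 2 (background 27.4%), and 1 without MatSep P180 replicate 1, MatSep P10 replicate 1 or MatSep P10 replicate 2. With samples 16 and 17 as the only neonates, 12 were lower and 6 higher. With samples 22 to 24 as the only neonates, 18 were lower and 1 higher. Nid2, a basement membrane nidogen, fell by 1.46 ± 0.08, the apelin receptor Aplnr by 1.72 ± 0.13 and the VEGF co-receptor Nrp1 by 0.79 ± 0.07 on the log2 scale. Against them, Esm1 (endocan), which endothelial cells secrete, had 9.34, 9.59, 9.71, 9.71 and 9.57 in P180 arrays, against 7.58, 7.29, 7.46, 7.49 and 7.22 in P10 arrays. Esm1 was therefore high in every adult array (difference 2.18 ± 0.09, adjusted p = 1.81e-13). Among 18 endothelial markers, 6 were lower (background 22.2%), 2 were higher (background 27.4%) and the median was 0.01. The surface sialomucin Cd34 and the cadherin Cdh5 fell by 0.77 ± 0.11 and 0.74 ± 0.14 on the log2 scale, and the VEGF receptor Flt1 rose by 0.71 ± 0.12. With samples 16 and 17 as the only neonates, 7 endothelial markers were higher and 3 lower, and with samples 22 to 24 as the only neonates, 1 was higher and 6 lower. The 7 lymphatic markers gave 5 lower and none higher (median -0.43), with Mmrn1 at -1.72 ± 0.11 and Reln at -1.03 ± 0.14. That count was 3 without MatSep P180 replicate 1 and likewise without MatSep P10 replicate 3.

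Smooth muscle genes depended on which neonates were used. Of 12 contractile and cytoskeletal markers, 4 were higher at P180 (background 27.4%) and the median was 0.62. None was lower (background 22.2%), and 1 was without MatSep P180 replicate 3 or MatSep P10 replicate 2. The actin-binding leiomodin Lmod1 had 8.23, 8.06, 9.91, 8.96 and 8.14 in P180 arrays, against 5.85, 6.38, 7.62, 7.74 and 7.68 in P10 arrays. Samples 16 and 17 are the first 2 of those neonates and lie well under the other 3. Lmod1 rose by 1.61 ± 0.41 (adjusted p = 0.00302), Casq2, a calcium-binding protein of muscle stores, by 1.36 ± 0.35 and desmin (Des) by 1.01 ± 0.28. With samples 16 and 17 as the only neonates, 9 of the 12 were higher (median 1.18), and with samples 22 to 24 as the only neonates none was higher and 1 was lower (median 0.21). Pericyte and renin cell markers gave 3 lower and 2 higher (1 without MatSep P10 replicate 2) of 7, with the potassium channel subunit Kcnj8 at -1.05 ± 0.15 and the PDGF receptor Pdgfrb at -0.71 ± 0.14.

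**Figure D3:**
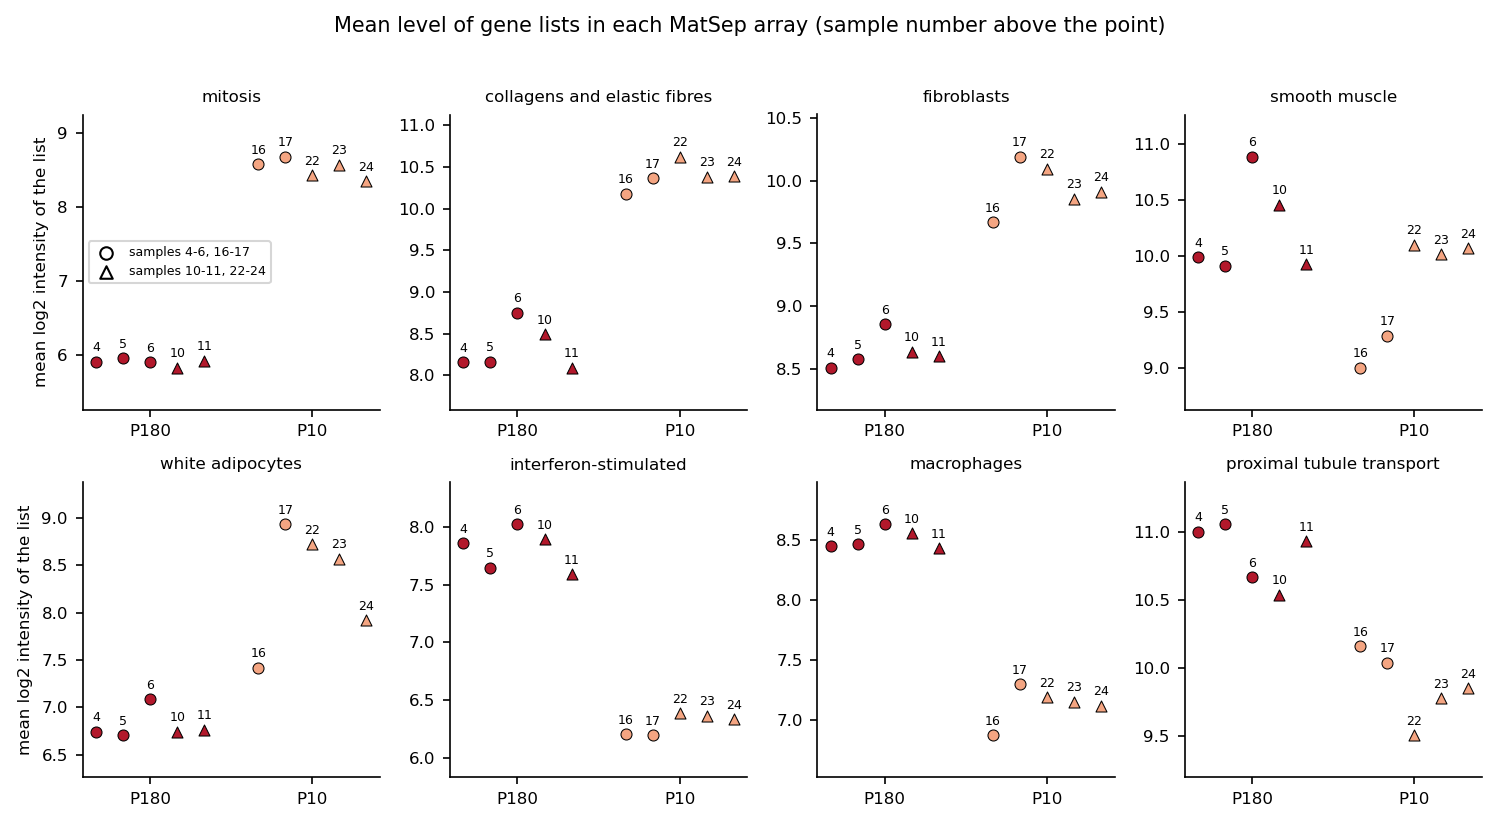
Mean log2 intensity of 8 gene lists in each MatSep array, P180 left and P10 right, with the sample number above each point and the second run of sample numbers at each age as triangles. Smooth muscle levels were 9.01 and 9.29 in samples 16 and 17 and 10.02 to 10.10 in samples 22 to 24, while mitosis and macrophage levels of the 2 ages lie far apart in both runs.

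Genes of vascular tone did not move as one, with a median of 0. Of 20 matched, 7 were higher and 3 lower, where 27.4% of all transcripts were higher and 22.2% lower. The count lower was 6 without sample 6 and 5 without sample 16. The largest difference was in Ptgs2, the inducible cyclooxygenase that makes prostaglandins, which had 6.81, 7.24, 7.38, 7.38 and 7.79 in P180 arrays, against 12.03, 11.90, 11.39, 11.53 and 11.42 in P10 arrays. Ptgs2 was thus 20.2-fold lower at P180 (difference -4.34 ± 0.17, adjusted p = 3.67e-14). The alpha-adrenergic receptor Adra2b, the natriuretic peptide clearance receptor Npr3 and the cation channel Trpc6 rose by 1.12 ± 0.10, 1.15 ± 0.13 and 1.10 ± 0.18.

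In the renin-angiotensin system, the precursor was higher and 2 of the angiotensin II receptors were lower in MatSep adults. Angiotensinogen (Agt) had 8.26, 8.21, 7.74, 8.60 and 8.30 in P180 arrays, against 5.70, 5.90, 5.61, 5.81 and 5.84 in P10 arrays. The type 2 receptor Agtr2, abundant in the developing kidney, had 4.61, 4.44, 4.66, 4.51 and 4.67 in P180 arrays, against a mean of 6.54 ± 0.41 (SD, n = 5) and a lowest value of 6.09 in P10 arrays. Agt rose by 2.45 ± 0.16 (5.47-fold, adjusted p = 1.11e-10), and Agtr2 fell by 1.96 ± 0.19 (adjusted p = 3.92e-08) to levels under 5 in all 5 adults, which may be background. Agtr1a, the receptor that mediates constriction by angiotensin II, fell by 0.80 ± 0.08 on the log2 scale, and the Mas receptor gene Mas1 rose by 1.10 ± 0.22. Agtr1b, the other type 1 receptor gene, was added after its values were seen and was not called (0.28 ± 0.16, adjusted p = 0.157). Of 11 genes in the list, 3 were higher, 4 lower and 4 not called, where 27.4% of all transcripts were higher and 22.2% lower.

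Antigen presentation and interferon-stimulated genes rose, while complement was mixed. All 15 antigen presentation genes were higher in MatSep adults (background 27.4%), with a median of 1.20, and so were 27 of 29 interferon-stimulated genes, with a median of 1.37 and none lower. The antiviral GTPase Mx1 had 8.54, 7.93, 8.58, 8.37 and 7.83 in P180 arrays, against 4.95, 5.10, 5.21, 5.27 and 5.31 in P10 arrays. The MHC class II chain RT1-Da had 10.94, 10.77, 10.97, 11.09 and 10.82 in P180 arrays, against 8.11, 7.94, 8.43, 8.69 and 8.44 in P10 arrays. In both, the lowest adult was above the highest neonate by over 2 units. Mx1, whose neonatal level may be background, rose by 3.08 ± 0.14 (adjusted p = 3.75e-13) and RT1-Da by 2.60 ± 0.13 (6.05-fold, adjusted p = 1.28e-12). Usp18, which removes the ISG15 tag from proteins, rose by 2.93 ± 0.12, the ubiquitin ligase Herc6 by 2.63 ± 0.12 and the RNA sensor Dhx58 by 2.04 ± 0.09. The immunoproteasome subunit Psmb8, the class II chain RT1-Bb and the class II invariant chain Cd74 rose by 2.10 ± 0.11, 2.39 ± 0.13 and 1.77 ± 0.10. Either run of neonates gave 26 or 27 interferon-stimulated genes and 14 or 15 antigen presentation genes higher.

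Macrophage and T cell markers moved with these genes, and their part in the rise was not tested. Of 16 macrophage markers, 13 were higher and 1 lower (median 1.40), and the list averaged 8.43 to 8.63 in P180 arrays and 6.87 to 7.30 in P10 arrays. The lysosomal protease cathepsin S (Ctss) had 9.59, 9.43, 9.61, 9.79 and 9.30 in P180 arrays, against 6.14, 6.76, 6.54, 6.53 and 6.34 in P10 arrays. It rose by 3.08 ± 0.14, the phagocyte oxidase subunit Cybb by 2.74 ± 0.11 and Aif1 by 2.12 ± 0.09. All 7 T cell markers were higher by a smaller amount (median 0.49, list level 5.98 to 6.23 in P180 arrays and 5.49 to 5.73 in P10 arrays), with Cd5, Lck and Cd8a at 0.59, 0.57 and 0.58. Of 4 B cell markers, 2 were higher. Mast cell markers gave none higher and 2 lower of 5, and neutrophil markers none higher and 1 lower of 6, with the granule enzyme Mpo at -1.95 ± 0.46. Complement was mixed, with 5 of 12 higher (background 27.4%) and 3 lower (background 22.2%), and its median was -0.24. The receptor C3ar1 and the central component C3 rose by 1.97 ± 0.12 and 0.92 ± 0.09, while the terminal component C6 and the regulator Cd46 fell by 1.16 and 0.93 on the log2 scale.

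Promoters of the interferon-stimulated genes are shown for the letters that define the interferon-stimulated response element (ISRE). GAAANNGAAA was found on either strand in 14 of 21 interferon-stimulated promoters (66.7%) and 6 of 13 antigen presentation promoters (46.2%), against 3.92% of all promoters. As the first list was drawn up from interferon-stimulated genes, its share describes the list and says nothing of the age difference. None of the 21 mitosis promoters and none of the 17 replication promoters held it. The stretches come from Irf7 (chr1:205800024-205800123, minus strand), Oas1a (chr12:41330386-41330485, plus strand) and Psmb8 (chr20:4656982-4657081, minus strand), with the ISRE letters of either strand in capitals, and in Oas1a they are 2 overlapping matches.
Irf7: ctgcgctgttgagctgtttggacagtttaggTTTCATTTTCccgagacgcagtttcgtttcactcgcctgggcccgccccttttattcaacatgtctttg
Oas1a: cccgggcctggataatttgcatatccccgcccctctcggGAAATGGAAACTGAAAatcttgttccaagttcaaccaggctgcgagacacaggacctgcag
Psmb8: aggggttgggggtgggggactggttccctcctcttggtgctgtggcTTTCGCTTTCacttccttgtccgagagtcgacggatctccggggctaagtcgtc
Irf7, which switches on type I interferon genes, and Oas1a, which senses double-stranded RNA, were chosen for their promoters after their values were seen. Irf7 ranged over 8.14 to 8.82 in P180 arrays and 5.35 to 5.65 in P10 arrays, and rose by 3.05 ± 0.15. Oas1a ranged over 7.72 to 7.91 in P180 arrays and 5.74 to 6.01 in P10 arrays, and rose by 1.92 ± 0.12.

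The largest rises of all were in metabolic and transport genes. Dhrs7l1, of the short-chain dehydrogenases, had 12.77, 12.70, 12.36, 12.91 and 12.81 in P180 arrays, against 5.18, 5.32, 5.58, 5.36 and 5.10 in P10 arrays. The fatty acid hydroxylase Cyp4a8 had 12.22, 12.09, 11.79, 12.23 and 12.25 in P180 arrays, against 5.85, 5.71, 5.23, 5.61 and 5.52 in P10 arrays. The amino acid transporter Slc7a12 had 11.58, 11.61, 11.08, 11.78 and 11.65 in P180 arrays, against 5.14, 4.67, 4.99, 5.28 and 5.12 in P10 arrays. All 3 were dim in every neonate and bright in every adult, and the lowest of the 5 adults was sample 6 each time. The differences were 7.41 ± 0.11 for Dhrs7l1 (adjusted p = 1.5e-20), 6.53 ± 0.15 for Cyp4a8 (adjusted p = 2.07e-17) and 6.50 ± 0.13 for Slc7a12 (adjusted p = 2.01e-18), and as the neonatal level may be background, the folds of 170.0, 92.4 and 90.6 are not exact. The aldo-keto reductases Akr1c12l1, AKR1C3l1 and Akr1c1 were also among the 12 largest rises, at 5.59, 4.91 and 4.03. Others were the beta-glucosidase Gba3 at 4.76, the glucuronosyltransferase Ugt2b35 at 4.57, the Schlafen family member Slfn4 at 4.10, the cytochrome P450 Cyp2c11 at 4.05 and the histamine-inactivating enzyme Hnmt at 3.95. Tff3, a secreted trefoil peptide of epithelia, had 11.94, 12.02, 11.51, 12.08 and 11.90 in P180 arrays, against 7.48, 7.42, 7.49, 7.78 and 7.55 in P10 arrays, a rise of 4.35 ± 0.11.

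Most proximal tubule genes rose by far less than these. Of 25 transport genes, 18 were higher (background 27.4%) and 1 lower (background 22.2%), with a median of 0.76. Of 27 metabolic genes, 20 were higher and none lower, with a median of 0.82. The organic cation transporter Slc22a2 rose by 2.69 ± 0.16, and the amino acid transporter subunits Slc7a13 and Slc3a1 by 1.40 ± 0.14 and 0.83 ± 0.09. The sodium-glucose cotransporter Slc5a1 fell by 0.95 ± 0.18 on the log2 scale. With samples 16 and 17 as the only neonates, 10 transport genes were higher, and with samples 22 to 24 as the only neonates, 19 were. The largest fall of all, in Adh6 of the alcohol dehydrogenases, ran against these enzymes. Adh6 had 6.27, 6.09, 6.03, 6.26 and 6.00 in P180 arrays, against 11.28, 10.89, 10.96, 11.01 and 11.15 in P10 arrays, so that it was high in every neonate and dim in every adult (difference -4.93 ± 0.12, adjusted p = 2.25e-17).

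Mitochondrial genes changed little. Of 22 oxidative phosphorylation subunits, 7 were higher and none lower, with a median of 0.15. Over all transcripts, 27.4% were higher and 22.2% lower, so 7 of 22 is near the background. The count higher was 3 without 1 of 5 arrays (MatSep P180 replicates 1, 2 or 5, MatSep P10 replicates 3 or 5) and 10 without sample 6. The succinate dehydrogenase subunits Sdha and Sdhb stood at 0.39 ± 0.09 and 0.38 ± 0.10. Fatty acid oxidation was split, with 8 of 22 lower and 5 higher, beside the same background. Hadha and Hadh, which work on fatty acids inside mitochondria, fell by 0.58 ± 0.08 and 0.63 ± 0.10, and the carnitine transferase Cpt2 by 0.71 ± 0.12 on the log2 scale, while the peroxisomal enzyme Hsd17b4 rose by 0.57 ± 0.09.

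Genes of corticosteroid signalling were mostly higher, at 7 of 12 (background 27.4%) with a median of 0.66. The count lower was 1 (background 22.2%), and 2 without MatSep P10 replicate 1. Hsd11b1, the enzyme that regenerates active glucocorticoid, had 11.59, 11.53, 11.21, 11.48 and 11.52 in P180 arrays, against 8.27, 8.39, 8.29, 7.93 and 8.34 in P10 arrays. It was 9.32-fold higher at P180 (difference 3.22 ± 0.09, adjusted p = 3.95e-16). Hsd11b2, which inactivates glucocorticoid, fell by 0.62 ± 0.13 (adjusted p = 0.00065), so the 2 enzymes moved in opposite directions. The glucocorticoid-induced genes Klf9 and Fkbp5 rose by 1.01 ± 0.09 and 1.10 ± 0.16, and the mineralocorticoid receptor Nr3c2 by 0.63 ± 0.09.

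Of 16 clock genes, 10 were higher (background 27.4%), 3 lower (background 22.2%) and the median was 0.55. The repressor Nr1d1 had 10.45, 10.57, 10.82, 10.62 and 10.59 in P180 arrays, against 8.46, 8.28, 8.54, 8.09 and 8.36 in P10 arrays. Ciart, a repressor of the Clock and Bmal1 pair, had 8.12, 7.98, 7.50, 8.40 and 8.08 in P180 arrays, against 4.87, 4.79, 5.15, 5.39 and 5.20 in P10 arrays. Nr1d1 rose by 2.26 ± 0.11, Ciart by 2.93 ± 0.30, Tef by 1.12 ± 0.12 and Rora by 0.79 ± 0.06, while the repressor Nfil3 fell by 0.77 ± 0.11 on the log2 scale. Bmal1, the activator of the loop, was chosen after its values were seen, and had 7.76, 7.90, 8.19, 7.72 and 7.96 in P180 arrays, against 8.45, 8.53, 8.66, 8.56 and 8.44 in P10 arrays. It was lower in all 5 adults (difference -0.62 ± 0.16, adjusted p = 0.003). With samples 16 and 17 as the only neonates, Bmal1 was at -0.59 and its call was narrowly lost (adjusted p = 0.05 as rounded). The hour at which each rat was killed is not in the labels. CACGTG, the E-box bound by Clock and Bmal1, was in 4 of 15 clock promoters (26.7%), against 6.42% of all. The Ciart stretch (chr2:186112237-186112356, minus strand) is shown because it holds 3 of them, in capitals.
Ciart: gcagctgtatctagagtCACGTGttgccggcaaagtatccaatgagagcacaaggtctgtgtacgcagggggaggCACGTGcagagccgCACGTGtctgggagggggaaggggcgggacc

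Fat genes were lower in MatSep adults. Of 9 white adipocyte markers, 7 were lower (background 22.2%), none was higher and the median was -1.61. The list averaged 6.71 to 7.08 in P180 arrays and 7.42 to 8.93 in P10 arrays. Plin1, which coats lipid droplets, had 5.39, 5.88, 7.11, 5.45 and 6.20 in P180 arrays, against 8.02, 9.56, 10.17, 9.51 and 8.69 in P10 arrays. Ucp1, the uncoupling protein of brown fat, had 6.13, 6.29, 6.31, 6.11 and 6.50 in P180 arrays, against 10.21, 12.35, 11.68, 11.73 and 9.86 in P10 arrays. Neonates spread over more than 2 units in both genes and adults did not reach them. Plin1 fell by 3.19 ± 0.62 (adjusted p = 0.000282), Ucp1 by 4.90 ± 0.74 (29.8-fold lower at P180, adjusted p = 1.56e-05), the brown fat gene Cidea by 2.86 ± 0.56, leptin (Lep) by 1.04 ± 0.18 and adipsin (Cfd) by 1.17 ± 0.23 on the log2 scale. Of 5 brown adipocyte markers, 2 were lower and 1 was higher (none without MatSep P10 replicate 3), where 22.2% of all transcripts were lower and 27.4% higher. With samples 16 and 17 as the only neonates, 5 white adipocyte markers were lower, and with samples 22 to 24 as the only neonates, 7 were.

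The same age difference was then set against that of control rats, which share no array with it. In controls, 4572 transcripts (24.7%) were higher and 3820 (20.6%) lower at P180. Of the transcripts higher in MatSep adults, 68.6% (3480) were also higher in control adults, which is 76.1% of the control list, and of those lower in MatSep adults, 78.0% (3208) were lower in control adults, 84.0% of the control list. Across transcripts the MatSep and control differences had a Pearson r of 0.93, where transcripts are not independent replicates. Only 8 transcripts were called in opposite directions. In the test of the difference between the 2 age differences, 0 transcripts (0%) passed an adjusted p of 0.05 in limma, with a smallest adjusted p of 0.0754, and 1674 (9.04%) had an unadjusted p under 0.05. Calls appeared when single arrays were left out, 42 without control P180 replicate 4, 52 without control P10 replicate 2, 12 without MatSep P10 replicate 1 and 1 without control P10 replicate 3. With the runs of sample numbers as a fixed block 24 transcripts were called, with the runs as a random block 10, and with array weights 128. With the replicate number as a block, 20 were called. What follows is below the threshold over all transcripts in the fit without blocks or weights.

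**Figure D4:**
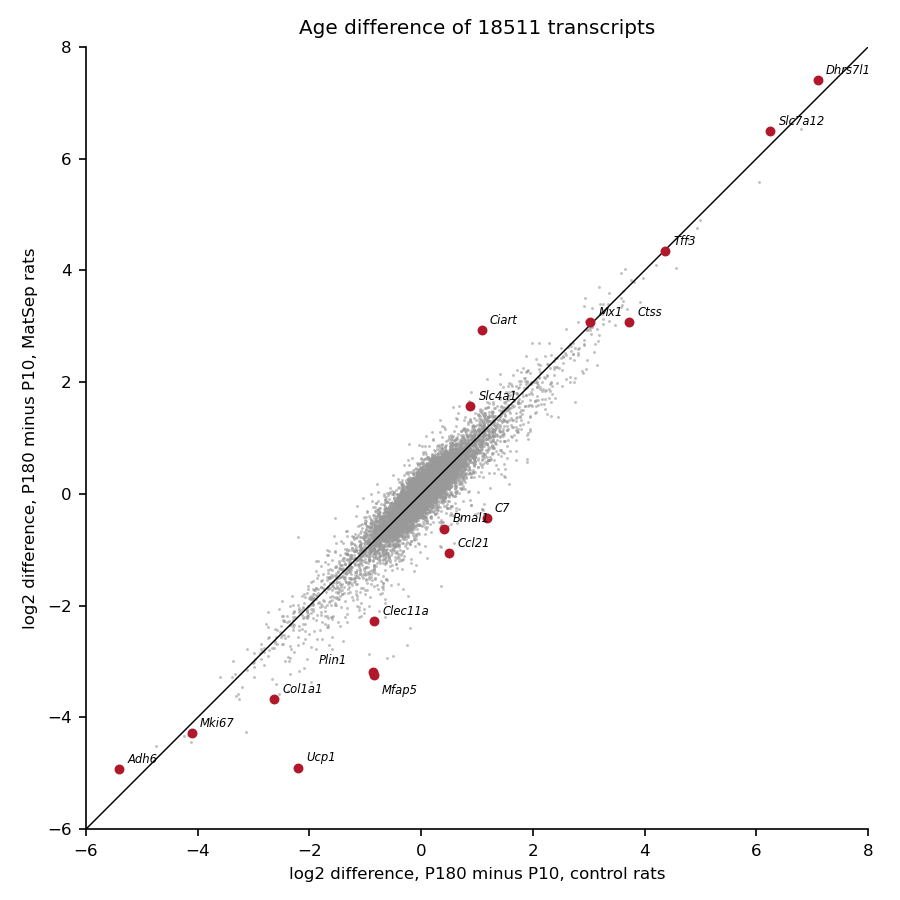
Log2 difference (P180 minus P10) of each of the 18511 transcripts, control rats on the horizontal axis and MatSep rats on the vertical axis, with the line of equal difference and named genes as large points. Genes such as Dhrs7l1, Tff3, Mx1 and Mki67 lie on or beside the line, while Mfap5 (-3.24 in MatSep, -0.85 in control) and Plin1 (-3.19 in MatSep, -0.86 in control) lie under it.

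Cell division genes had like age differences in MatSep and control rats. The mitosis list had a median of -2.69 in MatSep and -2.64 in control rats, and none of its 23 genes had an unadjusted p under 0.05 for the difference (9.04% of all transcripts). The interferon-stimulated list stood at 1.37 and 1.54, with 3 of 29 under 0.05, and the proximal tubule transport list at 0.76 and 0.68, with none of 25.

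Matrix, fibroblast and fat genes had more negative age differences in MatSep rats. The matrix list had a median of -2.09 in MatSep and -1.45 in control rats, all 29 members were lower in MatSep than in control rats in their age difference, and 22 had an unadjusted p under 0.05 (background 9.04%). Col1a2 differed by -1.01 ± 0.28 between the 2 age differences and Col3a1 by -0.90 ± 0.25 (adjusted p = 0.219 and 0.221). Fibroblast markers gave 7 of 10 and white adipocyte markers 8 of 9 under 0.05. Mfap5, for which control rats had 6.15, 6.13, 6.66, 5.65 and 6.39 at P180 and 5.94, 8.27, 8.17, 6.60 and 6.27 at P10, differed by -2.39 ± 0.52 (adjusted p = 0.143). Control neonates thus ranged from the adult level to 8.27, while all 5 MatSep neonates were above that value. The white adipocyte list averaged 6.71 to 7.08 in MatSep P180, 7.42 to 8.93 in MatSep P10, 6.63 to 7.66 in control P180 and 5.99 to 8.51 in control P10 arrays, and the part of fat in the samples was not tested.

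Macrophage genes had smaller age differences in MatSep rats, at a median of 1.40 against 1.87 in control rats. Of 16 markers, 11 had an unadjusted p under 0.05 for the difference (9.04% of all transcripts). The list averaged 8.43 to 8.63 in MatSep P180 and 8.52 to 8.69 in control P180 arrays, and 6.87 to 7.30 in MatSep P10 and 6.50 to 7.03 in control P10 arrays. Olr1, the receptor for oxidised LDL, rose by 1.65 ± 0.14 in MatSep and by 2.76 in control rats, a difference of -1.10 ± 0.20 (adjusted p = 0.0816). Ccr1, a chemokine receptor, had the smallest p. It had 5.03, 5.10, 4.96, 5.11 and 5.03 in MatSep P180 arrays and 5.42, 5.63, 5.52, 5.56 and 5.70 in MatSep P10 arrays, against 5.32, 5.38, 5.20, 4.97 and 5.14 in control P180 arrays and 5.11, 5.14, 5.10, 5.12 and 5.03 in control P10 arrays. The 5 MatSep neonates were above all other arrays, by little and near the dim end (difference of differences -0.62 ± 0.10, adjusted p = 0.0754).

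Clec11a, a secreted lectin growth factor, fell by 2.28 ± 0.18 in MatSep and by 0.84 in control rats (difference -1.44 ± 0.25, adjusted p = 0.0816). Ssc5d fell by 1.21 ± 0.10 in MatSep and by 0.40 in control rats (difference -0.80 ± 0.15, adjusted p = 0.0816). The complement component C7 had 9.74, 9.93, 10.00, 10.13 and 9.73 in MatSep P180 arrays and 9.59, 10.09, 10.83, 10.50 and 10.73 in MatSep P10 arrays, against 10.99, 10.61, 10.91, 10.26 and 10.35 in control P180 arrays and 9.01, 9.72, 9.83, 9.61 and 9.09 in control P10 arrays. Ages overlapped in MatSep rats for C7 (-0.44 ± 0.21, adjusted p = 0.0871) and did not in controls, where it was 1.17 higher at P180. The MatSep difference of C7 was 0.06 with samples 16 and 17 as the only neonates (adjusted p = 0.848), and it was called at -0.78 with samples 22 to 24 (adjusted p = 0.003), at -0.63 without sample 16 (adjusted p = 0.0103) and at -0.51 with array weights (adjusted p = 0.0312). The interleukin receptor Il1r1 and the matrix protein Dpt, chosen after their values were seen, were among the 8 called in opposite directions, at -0.25 and -0.52 in MatSep and 0.46 and 0.65 in control rats. The MatSep call was lost for Il1r1 without any 1 of 5 MatSep arrays (P180 replicates 2 and 4, P10 replicates 2, 3 and 4) and for Dpt without any 1 of 6 (P180 replicates 1, 2 and 5, P10 replicates 2, 3 and 5). Ccl21, a lymphatic chemokine, had 7.77, 7.98, 7.60, 7.83 and 7.41 in MatSep P180 arrays and 8.24, 8.45, 9.32, 8.94 and 8.93 in MatSep P10 arrays. It fell by 1.06 ± 0.26 on the log2 scale, while in controls its difference was 0.50 (adjusted p = 0.12). With samples 16 and 17 as the only neonates, the MatSep difference of Ccl21 was -0.63 and was not called (adjusted p = 0.138).

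On the positive side, Tspan8, a tetraspanin, was at -0.66 in MatSep and -1.34 in control rats, Lhx3 at 0.65 and 0.00, Cnksr1 at 0.39 and -0.19 and Fam169a at 0.02 and -0.61. Slc4a1, the anion exchanger of acid-secreting collecting duct cells and red cells, had 10.67, 10.58, 10.41, 10.74 and 10.77 in MatSep P180 arrays, against 9.16, 8.99, 8.96, 9.24 and 8.97 in MatSep P10 arrays. Its rise of 1.57 ± 0.10 compares with 0.88 in controls (difference 0.69 ± 0.15, adjusted p = 0.14). All 10 collecting duct markers had a more positive age difference in MatSep rats, 5 of them with an unadjusted p under 0.05. Over all transcripts 1674 (9.04%) had such a p, 756 of them with a positive difference.

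Clock genes differed most widely in adults of the control group. Ciart had 5.49, 5.75, 5.69, 7.76 and 6.62 in control P180 arrays and 5.04, 5.40, 5.49, 5.05 and 4.93 in control P10 arrays, so that its difference was 2.93 ± 0.30 in MatSep and 1.08 in control rats (difference 1.85 ± 0.43, adjusted p = 0.158). Bmal1, one of the 8 opposite calls, had 9.40, 8.94, 8.97, 8.04 and 8.83 in control P180 arrays and 8.39, 8.59, 8.38, 8.43 and 8.32 in control P10 arrays, a difference of 0.41 against -0.62 in MatSep rats. Of 16 clock genes, 12 had an unadjusted p under 0.05 for the difference (9.04% of all transcripts). The control adult with the highest Ciart, 7.76, had the lowest Bmal1, 8.04, and stood nearest to the MatSep adults in both.

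**Figure D5:**
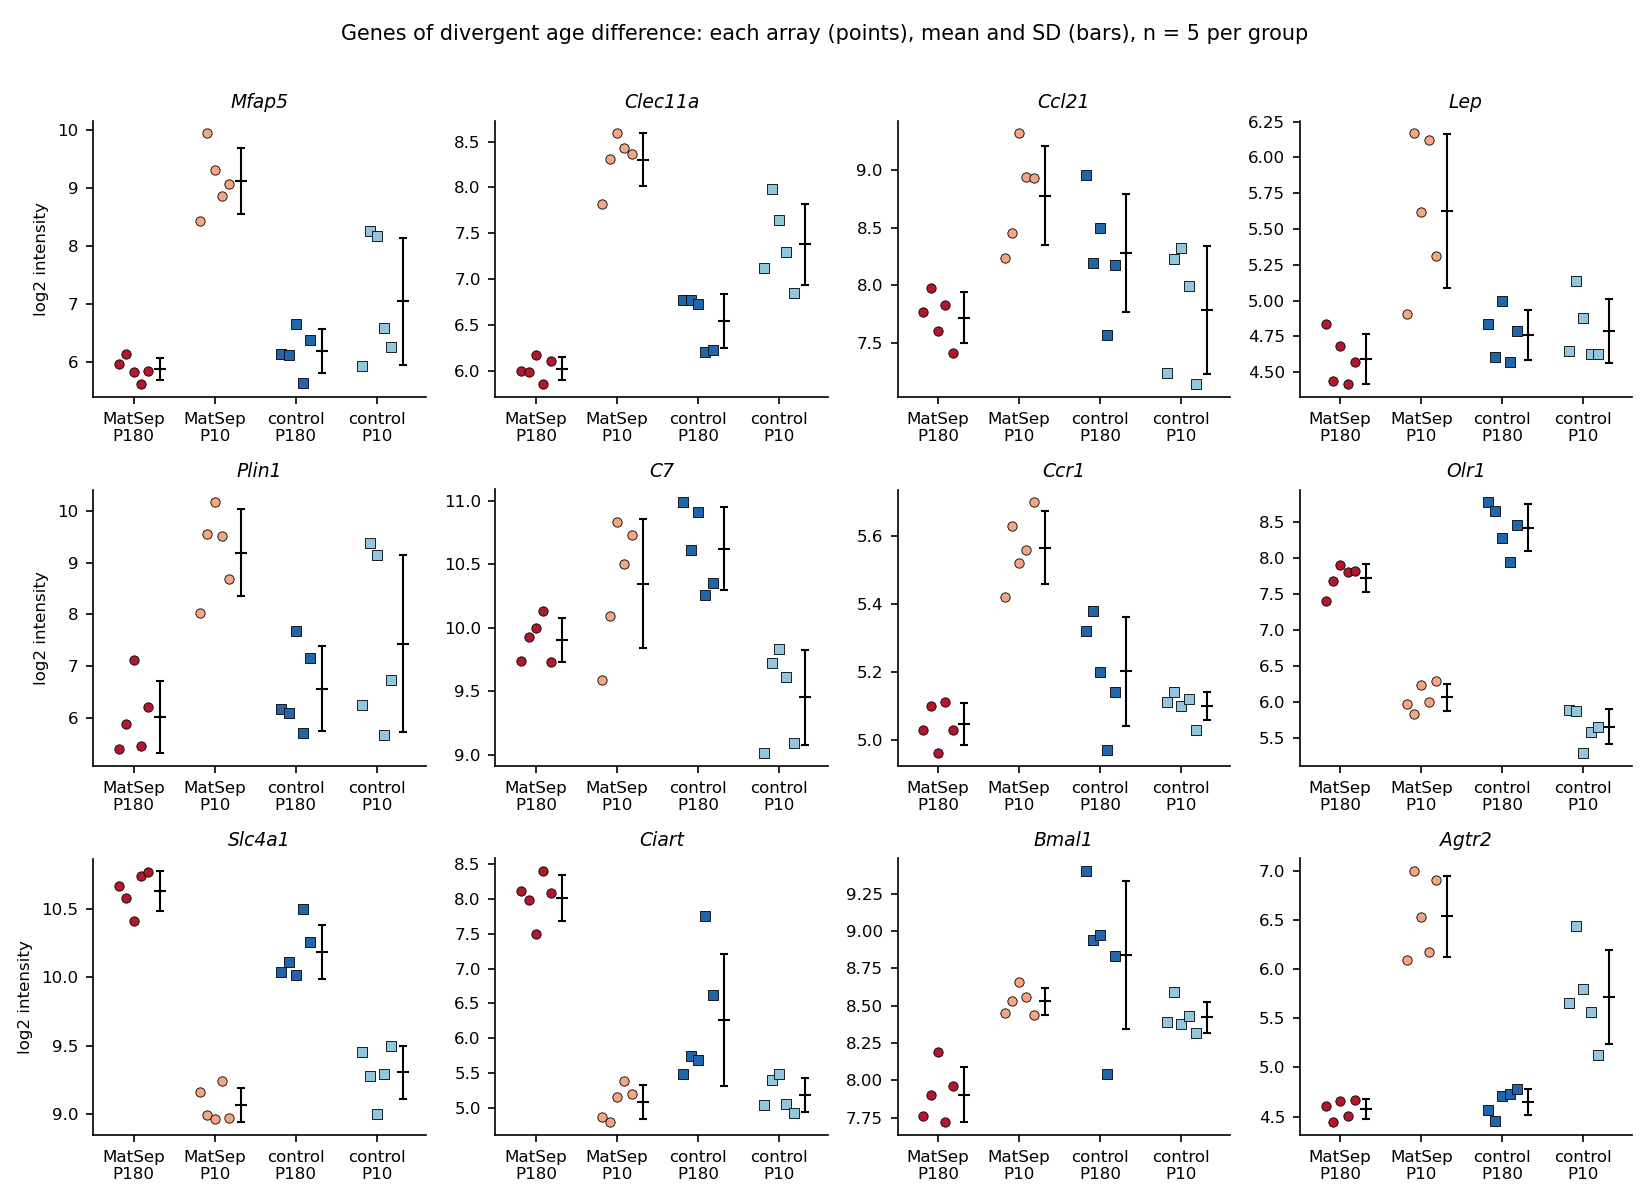
Log2 intensity of 12 genes in each array of the 4 groups, in the order MatSep P180, MatSep P10, control P180 and control P10, with mean and SD beside the points (n = 5 per group). For Mfap5, Clec11a, Lep and Ccr1 the MatSep neonates have the highest mean, and for Ciart the MatSep adults lie at 7.50 to 8.40 while control adults spread over 5.49 to 7.76.

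The receptor Agtr2 fell by 1.96 ± 0.19 in MatSep and by 1.07 in control rats, a difference of -0.89 ± 0.27 with an adjusted p of 0.277. Agt (2.45 and 2.54), Hsd11b1 (3.22 and 3.23), Nr1d1 (2.26 and 2.30), Ptgs2 (-4.34 and -4.25) and Esm1 (2.18 and 2.13) had like differences in MatSep and control rats, with an adjusted p of 0.939 or more for the difference in each.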

How the data were processed

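RNA of renal vessel preparations was hybridised to 1-colour whole-transcript rat arrays. The authors deposited 1 normalized intensity per transcript and array on a linear scale, and the submitters' processing notes name RMA and Partek. Columns of the authors' own comparisons were not used. Here log2 of the intensity was taken and limma 3.58.1 in R 4.3.3 fitted 1 mean per group over 20 arrays (16 residual degrees of freedom), with Benjamini-Hochberg adjustment over 18511 transcripts and no filter on dim ones. P-values measure the spread between the labelled biological replicates, and the number of arrays limits the precision. Lists were matched by exact symbol, with the transcript of highest mean for a gene. Named genes were the 12 largest called rises and falls whose arrays did not overlap, up to 4 members of each list by p and 1 opposite (3 for markers), and 5 in each direction for the difference from controls. Cdk1, Prc1, Irf7, Oas1a, Bmal1, Dpt, Il1r1 and Agtr1b fell outside that rule. Members and lists were chosen with earlier results of these data known. The fit was tested on simulated data. Alternatives covered scaling, dim transcripts, variance settings, blocks, runs and single arrays left out.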

Additional observations from a re-analysis of the deposited data

Results flagged for a closer look

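In groups of 5 arrays, a value far from the other 4 by Dixon's criterion was found 12 times in 282 groups tested over the genes followed, and chance alone flags about 1 group in 20. MatSep P180 replicate 3 (sample 6) held 9 of them. It was the highest adult for Mki67 at 7.01, Flt1 at 10.58, Cdh5 at 11.17 and Mpo at 6.41, and the lowest for Slc7a12 at 11.08, Hsd11b1 at 11.21, Plagl1 at 8.45, Slc3a1 at 13.12 and Tfrc at 7.54. MatSep P180 replicate 5 was the lowest adult for Grb10 at 8.30 and Klf9 at 10.35. MatSep P10 replicate 4 was the lowest neonate for Hsd11b1 at 7.93.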

How the results depend on the processing

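Without 1 array at a time, 4465 to 5168 transcripts were higher and 3873 to 4161 lower in MatSep adults. Over all 36685 transcripts, 7787 were higher and 6475 lower, and with a 2-fold limit 623 and 728, since those settings test or keep other numbers of transcripts. Further quantile normalization gave 4059 higher and 4103 lower (median difference 0.01) and median centring 5744 and 3868 (median 0.09). The count of transcripts whose age difference differed from controls was 0 to 52 without 1 array, 128 with array weights, 10 with the runs as a random block and 24 with the runs as a fixed block, and the cause was not tested. Replicate numbers did not pair MatSep adults with MatSep neonates throughout. Same-numbered MatSep arrays correlated at 0.008 to 0.43 in their deviations, and 2 of 5 adults correlated best with their own number. Same-numbered MatSep and control neonates correlated at 0.092 to 0.615, and same-numbered MatSep and control adults at -0.211 to 0.214. MatSep neonates 1 to 4 correlated best with the control neonate of their number, at 0.615, 0.487, 0.603 and 0.092. MatSep neonate 5 correlated best with control neonate 4, at 0.386. The labels do not say what the replicate numbers share. With the replicate number as a block, 5321 were higher, 4327 lower and 20 differed from controls.

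Of 37 list medians under all alternatives, 1296 of 1332 values moved by less than the spread between replicates. Some medians near 0 changed sign within that spread. With samples 22 to 24 as the only neonates, endothelium went from 0.01 to -0.15 and fatty acid oxidation from -0.08 to 0.02. The medians that moved by more follow. With samples 16 and 17 as the only neonates, medians were -2.86 for mitosis, -1.38 for DNA replication, 0.34 for vascular tone, -0.16 for the renin-angiotensin system, 1.43 for antigen presentation, -0.01 for complement, 0.52 for proximal tubule metabolism, 1.18 for smooth muscle, -1.28 for fibroblasts, 0.25 for podocytes, -0.75 for erythroid cells, 0.03 for brown adipocytes and -0.70 for mesothelium. With samples 22 to 24 they were 0.14 for the renin-angiotensin system, 1.09 for antigen presentation, -0.14 for podocytes and 0.10 for adrenal cortex. With adults 4 to 6 only, the renin-angiotensin median was -0.05, and with adults 10 and 11 only it was 0.21, with neutrophils at 0.06 and brown adipocytes at -0.22. Quantile normalization gave -0.43 for forming nephrons, 0.35 for T cells, -0.03 for mast cells, 0.02 for neutrophils, -0.22 for brown adipocytes and 0.07 for adrenal cortex, and array weights -0.60 for lymphatic endothelium. A mean log2 of 5 or more left fewer members and gave -0.53 for mast cells, -1.95 for neutrophils, 0.05 for erythroid cells, -2.86 for brown adipocytes and -0.63 for mesothelium. Without 1 array, the renin-angiotensin median was -0.05 to 0.16 and the adrenal cortex median 0.12 to 0.22. Of 138 named genes called, 12 lost the call under at least 1 alternative. C7, not called, was 0.06 with samples 16 and 17 only and was called at -0.78 with samples 22 to 24 only, at -0.63 without MatSep P10 replicate 1 and at -0.51 with array weights. Fam169a, near 0 throughout, was -0.06 with quantile normalization, -0.04 with array weights, -0.09 with samples 16 and 17 only, -0.08 with adults 4 to 6 only and -0.05 to 0.07 without 1 array.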

Other observations

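Markers of other cells the preparation could hold were called in both directions in MatSep rats, where 27.4% of all transcripts were higher and 22.2% lower. Of 8 thick ascending limb and distal tubule markers, 3 were higher and none lower at P180 (median 0.24), and 5 were higher without MatSep P180 replicate 3. Of 10 collecting duct markers, 3 were higher and 1 lower (median 0.12), and none was lower without MatSep P180 replicate 4 or MatSep P10 replicates 1 or 2. The anion exchangers Slc4a1 and Slc26a4 and the proton pump subunit Atp6v1g3 rose by 1.57 ± 0.10, 1.17 ± 0.20 and 1.14 ± 0.19.

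Erythroid markers gave 1 higher and 3 lower of 5 (median -0.48), with the transferrin receptor Tfrc at -1.70 ± 0.14, and 1 was lower without MatSep P10 replicate 2 or 4. Neutrophil markers gave 1 lower of 6, and 1 was higher without MatSep P180 replicate 4 or 5. Mast cell markers gave 2 lower of 5. Mesothelium markers gave 1 lower of 3, Msln at -1.03 ± 0.18, and 1 was higher without MatSep P180 replicate 3 or MatSep P10 replicate 2. Podocyte markers gave 2 higher and 1 lower of 6, adrenal cortex markers 2 higher of 6, and skeletal muscle markers 1 higher of 3. These counts rest on single arrays: leaving out 1 array left 1 podocyte marker higher in 14 cases and none lower in 3, left 1 adrenal marker higher in 13 and made 2 skeletal muscle markers higher in 3. None of 5 nerve markers was called, and 2 were higher without MatSep P10 replicate 5.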
